A study of Homo sapiens with 12 samples.

Results

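The 10 genes described here encode the nuclear complex that writes N6-methyladenosine (m6A) on RNA and the enzymes that remove it. They were chosen by symbol from a count table of 62656 genes, and all 10 were found. METTL3, METTL14, WTAP, VIRMA, RBM15, RBM15B, ZC3H13 and CBLL1 are the writers, and ALKBH5 and FTO are the demethylases. The 12 RNA-seq libraries come from established lines of human colorectal cancer cells, HCT116 and LoVo, with 3 libraries in each of 4 groups. The groups are HCT116 control cells, HCT116 cells labelled SLERT OE (overexpression), LoVo control cells and LoVo cells labelled SLERT KD (knockdown), where SLERT is a long non-coding RNA made from the TBRG4 locus. The controls stand in columns headed Vector for HCT116 and ShNC for LoVo, and the knockdown in columns headed Sh. The labels give neither the number of hairpins, nor whether the cells were clones, nor the time after delivery, and they do not say whether a group's libraries are separate cultures. The p-values therefore measure the spread between these libraries, which may be technical.

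m6A is a methyl mark placed on adenosines of messenger RNA as they are transcribed. METTL3 is the subunit that transfers the methyl group from S-adenosylmethionine, and METTL14 pairs with it and helps to hold the RNA. WTAP brings this pair to nuclear speckles, VIRMA, ZC3H13 and the E3 ligase family protein CBLL1 (also called HAKAI) build the rest of the regulatory part, and RBM15 and its paralogue RBM15B bind RNA and direct the complex to its sites. FTO and ALKBH5 are dioxygenases that depend on iron and 2-oxoglutarate and take the mark off. The title of the series names RBM15 and m6A as the link between SLERT and another gene, so the question here is whether the RNA of RBM15 or of its partners differed with the manipulation of SLERT. The libraries measure RNA of these genes, not m6A itself.

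The libraries held between 14464008 and 17230310 counts, and each member had between 369 and 2804 counts in every library. SNORA5C, a snoRNA that forms an end of SLERT, had 16 counts over the 3 HCT116 controls and 1926 over the 3 OE libraries. The LoVo controls held 37 such counts in all and the libraries labelled KD 37, so a fall of SLERT was not detectable there, and LoVo groups are called by their label below. Summed markers of colorectal epithelium ran from 4656 to 5088 CPM (counts scaled to library size) in HCT116. In LoVo they ran from 6783 to 8325 CPM. KRT8 alone averaged 2646 CPM in the HCT116 controls and 4847 CPM in the LoVo controls. CDX1 had 0 counts in all HCT116 libraries. Over the 3 HCT116 controls VIL1, CDH17 and KRT20 had 4, 30 and 75 counts, against 4444, 12258 and 558 over the LoVo controls. Of 5 markers of fibroblasts and endothelium, COL1A1 averaged 82.2 CPM in the HCT116 controls and 1.18 CPM in the LoVo controls. The others, COL1A2, DCN, PECAM1 and VWF, had 1, 0, 11 and 89 counts over the 3 HCT116 controls. Over the LoVo controls they had 0, 3, 29 and 14 counts. The 8 retina markers summed to 1.10 to 3.33 CPM over all libraries, and the labels' extraction text, which speaks of retinas, was not relied on for the tissue.

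RBM15 and RBM15B are paralogues that differed in opposite directions between the lines, so their sequences bear on whether their reads can be told apart. The most similar stretch of 60 coding bases, found by comparing both coding sequences without gaps, is shown 5′ to 3′ with the bases that differ in capitals.
RBM15: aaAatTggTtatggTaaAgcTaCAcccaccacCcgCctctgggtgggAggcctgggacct
RBM15B: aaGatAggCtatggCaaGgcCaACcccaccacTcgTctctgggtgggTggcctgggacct
The RBM15 stretch is chr1:110340738-110340797 on the plus strand (GRCh38, GENCODE v29), and the RBM15B stretch is chr3:51392621-51392680, also on the plus strand. Of the 60 bases 49 are identical, and the longest exact run that the whole coding sequences share is 14 bases. Of 4170 distinct windows of 75 bases in the principal transcript of RBM15, 102 also occurred in another gene, the antisense RNA RBM15-AS1, and none in RBM15B.

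The members' exons overlap other genes to different extents, and the labels do not say whether counting used the strand. The largest share was that of RBM15B, where 18.1% of the windows of 75 bases lay in DCAF1, a gene on the opposite strand. For METTL3 10.4% of the windows lay in TOX4, for ALKBH5 10.6% lay in an antisense RNA, and for WTAP 9.16% lay in other genes, while VIRMA and ZC3H13 had 0. RBM15-AS1 had at most 23 counts in a library, against at least 435 for RBM15. DCAF1 had 1445 to 1783 counts in every library and did not differ between the control cells of the lines beyond the test (log2 fold change 0.08, adjusted p = 0.244), unlike RBM15B. TOX4 had 1111 to 1272 counts in the HCT116 controls and 533 to 563 in the LoVo controls (log2 fold change -1.01), unlike METTL3. SOD2, on the opposite strand, overlaps exons of WTAP. It had 1732 to 1943 counts in the HCT116 controls and 1977 to 2194 in the LoVo controls. SOD2 counts were thus higher in LoVo, as WTAP was, but this difference was not tested. The part of shared reads in any member's difference was not tested.

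METTL3 lies on chromosome 14 at 21498133 to 21511375 (minus strand), and METTL14 on chromosome 4 at 118685368 to 118715433 (plus strand). WTAP lies on chromosome 6 at 159725585 to 159756319 (plus), VIRMA on chromosome 8 at 94487693 to 94553529 (minus), ZC3H13 on chromosome 13 at 45954465 to 46052759 (minus) and CBLL1 on chromosome 7 at 107743697 to 107761667 (plus). RBM15 lies on chromosome 1 at 110338506 to 110346681 (plus) and RBM15B, a gene of 1 exon, on chromosome 3 at 51391268 to 51397908 (plus). ALKBH5 lies on chromosome 17 at 18183078 to 18209954 (plus) and FTO on chromosome 16 at 53701692 to 54158512 (plus). No pair of members shares a locus.

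Levels are first given as the deposited FPKM (fragments per kilobase of gene, scaled to the library's total count), which sets genes of different length on 1 scale. In the HCT116 controls ALKBH5 was highest at 33.7 ± 1.53 FPKM (mean ± SD, n = 3), and FTO was lowest at 2.66 ± 0.136 FPKM. Between them stood ZC3H13 at 15 ± 0.193, VIRMA at 14.5 ± 0.687, METTL3 at 12.9 ± 0.268, RBM15 at 11.7 ± 0.784, RBM15B at 11.7 ± 0.150, WTAP at 10.9 ± 0.219, CBLL1 at 9.28 ± 0.479 and METTL14 at 6.77 ± 0.446 FPKM. In that order the libraries of ZC3H13 and VIRMA overlapped, as did those of RBM15 and RBM15B, and the other neighbours did not.

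The order differed in the LoVo controls. ALKBH5 was again highest at 23.8 ± 0.617 FPKM, but RBM15B followed at 22.0 ± 0.799, ahead of METTL3 at 14.7 ± 1.02, WTAP at 13.6 ± 0.894 and ZC3H13 at 10.1 ± 0.253. CBLL1 at 7.16 ± 0.414 and RBM15 at 6.59 ± 0.140 came next, then VIRMA at 4.85 ± 0.344, METTL14 at 3.99 ± 0.253 and FTO at 1.66 ± 0.0973 FPKM. Here METTL3 overlapped WTAP, and CBLL1 overlapped RBM15. On this scale VIRMA had rank 3 among the members in HCT116 and rank 8 in LoVo, and RBM15B ranks 6 and 2.

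**Figure D1:**
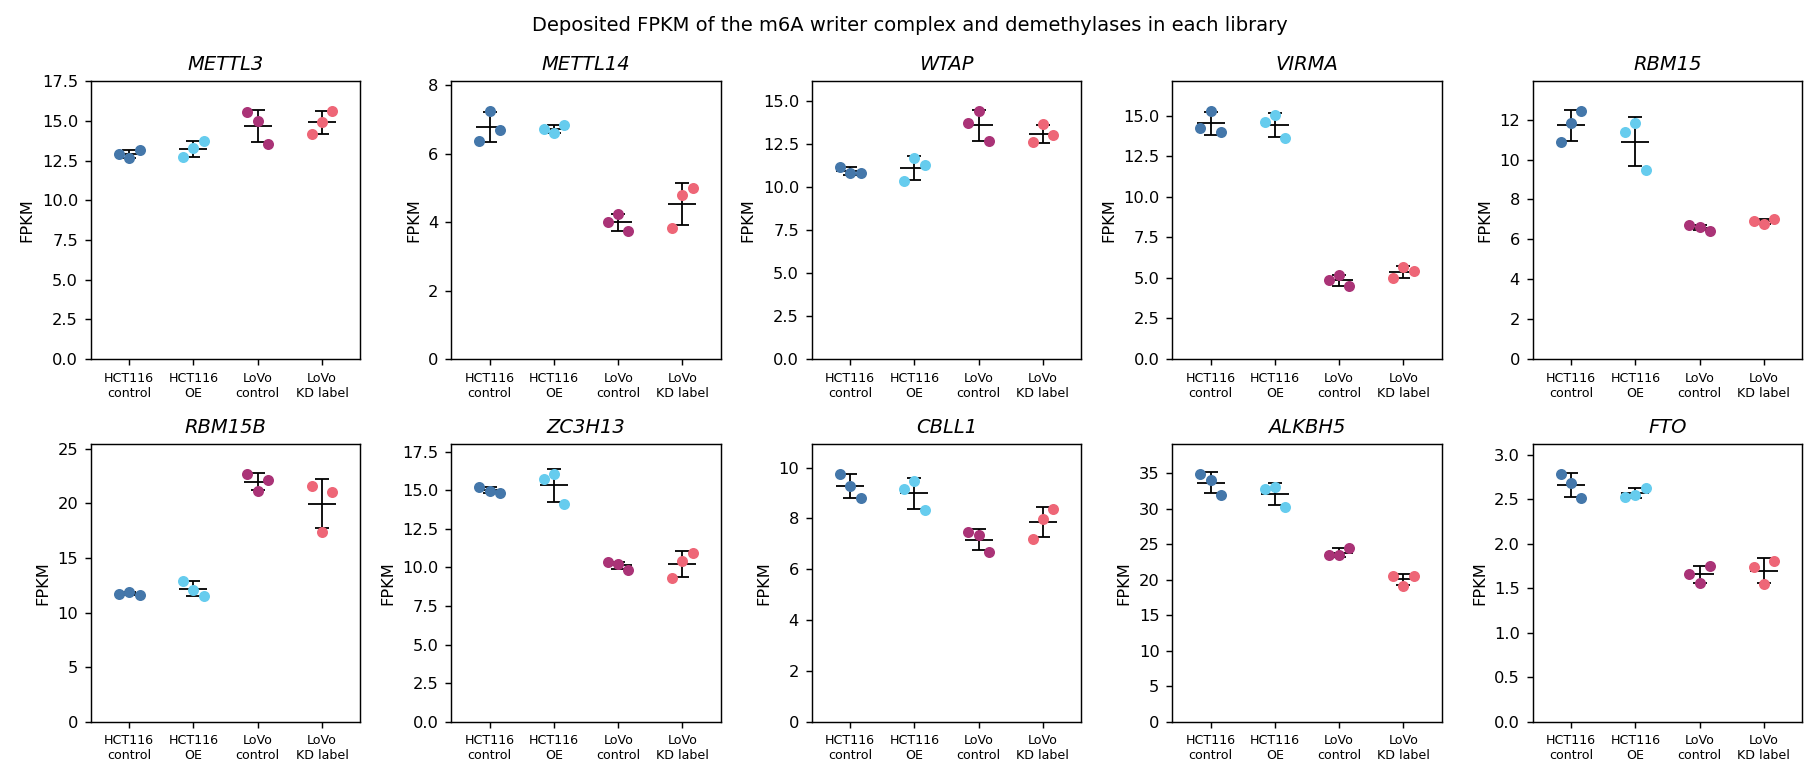
Each panel shows 1 gene, with its deposited FPKM on the vertical axis (from 0) in each of the 12 libraries by group. Points are libraries and bars are the mean and SD of 3. VIRMA stands at 14.5 FPKM in the HCT116 controls and 4.85 in the LoVo controls, RBM15B is higher in LoVo, and the arms of each line lie close together.

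The order of the members rests on the gene length behind the FPKM, most of all for METTL3. From counts and FPKM, that length came to 5861 bases for METTL3, about the 5894 bases of all its annotated exons together, whereas its principal transcript (GENCODE v29) has 2015 bases, a difference of 2.91 times. For FTO the lengths were 21379 and 11766 bases (1.82 times), for WTAP 6413 and 3656 (1.75 times), for VIRMA 10775 and 6528 (1.65 times) and for ZC3H13 10265 and 6412 (1.60 times). They were nearly alike for METTL14 (1.03 times), RBM15 (1.10 times) and RBM15B (0.997 times). Per kilobase of principal transcript, METTL3 stood at 37.6 ± 0.780 CPM in the HCT116 controls, second to ALKBH5 at 44.2 ± 2.0. On that scale it was the highest member in the LoVo controls, at 42.7 ± 2.95 against 31.2 ± 0.809 for ALKBH5. VIRMA had ranks 4 and 7 in HCT116 and LoVo on that scale, and RBM15B ranks 7 and 4, where WTAP at 23.9 ± 1.57 overlapped RBM15B at 21.9 ± 0.797 in LoVo. FTO was the lowest on this scale too, at 4.84 ± 0.247 in HCT116 and 3.01 ± 0.177 in LoVo. Changes of a single gene between libraries do not depend on the length used.

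**Figure D2:**
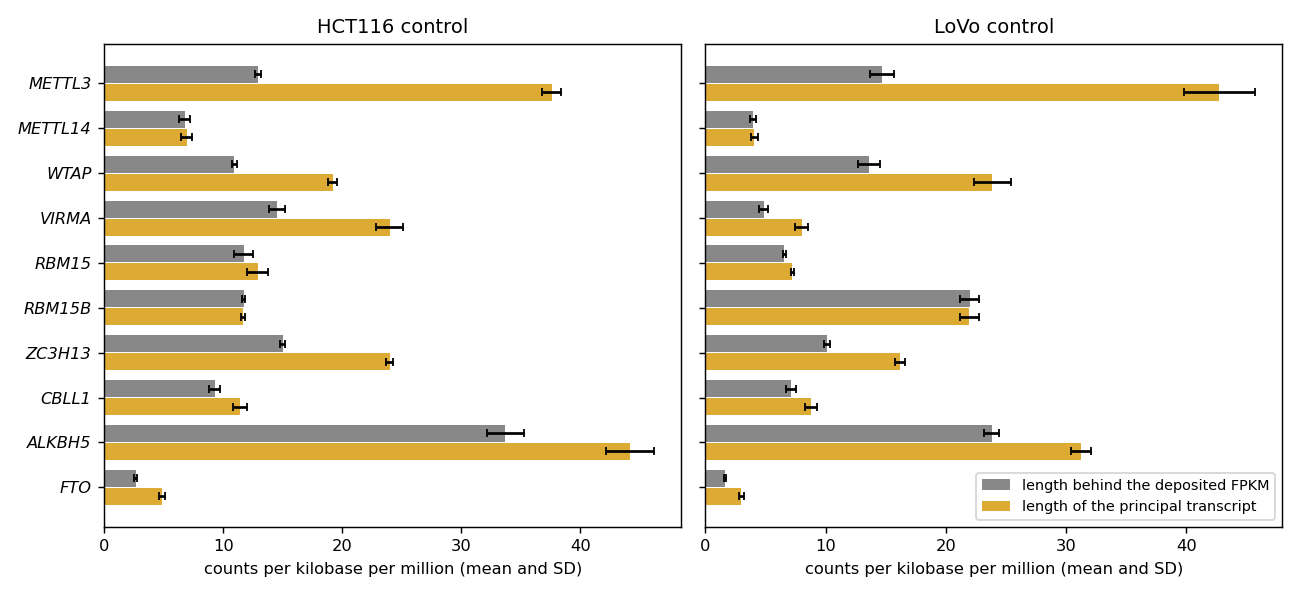
Bars show each gene's mean level in the HCT116 and LoVo controls (horizontal axis, CPM per kilobase, from 0, error bars SD of 3 libraries), in grey with the length behind the deposited FPKM and in yellow with the length of the principal transcript. METTL3 moves from 12.9 to 37.6 in HCT116, and METTL14 and RBM15B hardly move.

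The control cells of both lines were compared first. Of the 10 members 9 differed between LoVo and HCT116 at an adjusted p under 0.05 (edgeR, quasi-likelihood), 7 lower and 2 higher in LoVo. The lines differ throughout, with 76.6% of all 18199 genes tested called in this comparison (38.7% lower and 37.9% higher), so a count of 9 of 10 sets the members apart in no way. The median log2 fold change was -0.64 for the members and 0.01 for all genes tested, and the median size was 0.73 and 0.77. Each line is 1 line, so these are differences between these cells and not between kinds of tumour.

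Of the pair of METTL3 and METTL14, METTL14 was lower in LoVo and METTL3 did not pass the test. METTL14 measured 6.37, 7.25 and 6.70 FPKM in the HCT116 controls and 4.0, 4.24 and 3.73 in the LoVo controls, with no overlap (log2 fold change -0.87, SE 0.087, edgeR adjusted p = 3.56e-10). METTL3 measured 12.9, 12.6 and 13.2 FPKM in HCT116 and 15.5, 15 and 13.6 in LoVo, so every LoVo control was above every HCT116 control before scaling factors. With those factors the values overlapped and METTL3 did not pass (log2 fold change 0.08, 95% interval -0.05 to 0.21, adjusted p = 0.243), whereas on log2(FPKM + 1) limma called it (0.17, adjusted p = 0.0168).

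VIRMA, the large scaffold of the regulatory part, showed the largest difference of the 10. It measured 14.2, 15.3 and 14 FPKM in the HCT116 controls and 4.88, 5.18 and 4.50 in the LoVo controls. The level was 3.21-fold lower in LoVo (log2 fold change -1.68, SE 0.066, edgeR adjusted p = 9.21e-20). ZC3H13, a zinc finger protein that anchors the complex in the nucleus, was 1.59-fold lower in LoVo (log2 fold change -0.67, SE 0.062), and CBLL1 was 1.39-fold lower (-0.48, SE 0.077). Unlike VIRMA, ZC3H13 and CBLL1, WTAP was higher in LoVo (log2 fold change 0.21, SE 0.065, edgeR adjusted p = 0.00471). It measured 11.2, 10.8 and 10.8 FPKM in HCT116 and 13.7, 14.4 and 12.7 in LoVo.

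RBM15 and RBM15B differed between the lines in opposite directions. RBM15 measured 10.9, 11.8 and 12.4 FPKM in the HCT116 controls and 6.72, 6.60 and 6.44 in the LoVo controls, a 1.91-fold lower level in LoVo (log2 fold change -0.93, SE 0.081, edgeR adjusted p = 1.37e-11). RBM15B measured 11.7, 11.9 and 11.6 FPKM in HCT116 and 22.7, 21.1 and 22.1 in LoVo, a 1.75-fold higher level (log2 fold change 0.81, SE 0.070, adjusted p = 1.36e-11). Neither gene's groups overlapped, and over all members 9 of 10 had no overlap, as did 78.4% of all genes tested. Both demethylases were lower in LoVo, ALKBH5 by 1.52-fold (log2 fold change -0.60, SE 0.061) and FTO by 1.73-fold (-0.79, SE 0.076). All 9 calls held under each of the 19 alternatives tried.

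**Figure D3:**
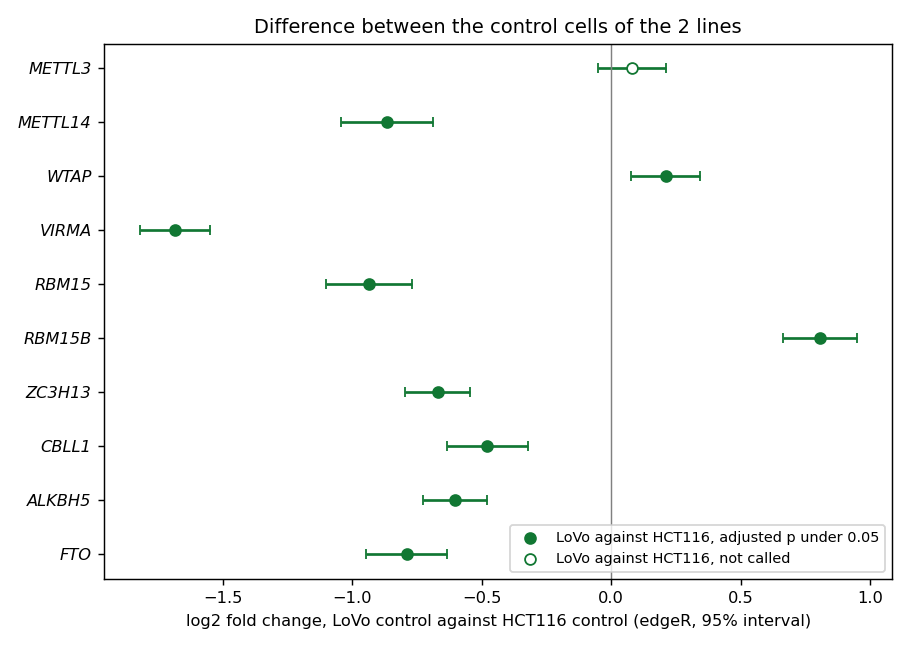
Points are log2 fold changes of LoVo against HCT116 control cells (horizontal axis) from edgeR with 95% intervals, filled where the adjusted p was under 0.05. VIRMA lies farthest down at -1.68, RBM15B farthest up at 0.81, and METTL3 is the open point at 0.08.

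Ratios within a library do not depend on how libraries are scaled. The ratio of METTL3 to METTL14 in FPKM was 2.03, 1.74 and 1.97 in the HCT116 controls and 3.88, 3.54 and 3.64 in the LoVo controls. The groups did not overlap, and the mean ratio was 1.93-fold higher in LoVo. The ratio of RBM15 to RBM15B was 0.932, 0.996 and 1.07 in the HCT116 controls and 0.296, 0.312 and 0.291 in the LoVo controls, 3.34-fold lower in LoVo with no overlap. The exact two-sided permutation test gave p = 0.1 for each, the smallest that 3 libraries against 3 allow, and an adjusted p = 0.2 over the 6 ratio comparisons. With principal transcript lengths the mean ratio of METTL3 to METTL14 was 5.43 and 10.5, so the size of that ratio, not its difference between lines, rests on the length. For RBM15 to RBM15B the corresponding means were 1.10 and 0.331.

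**Figure D4:**
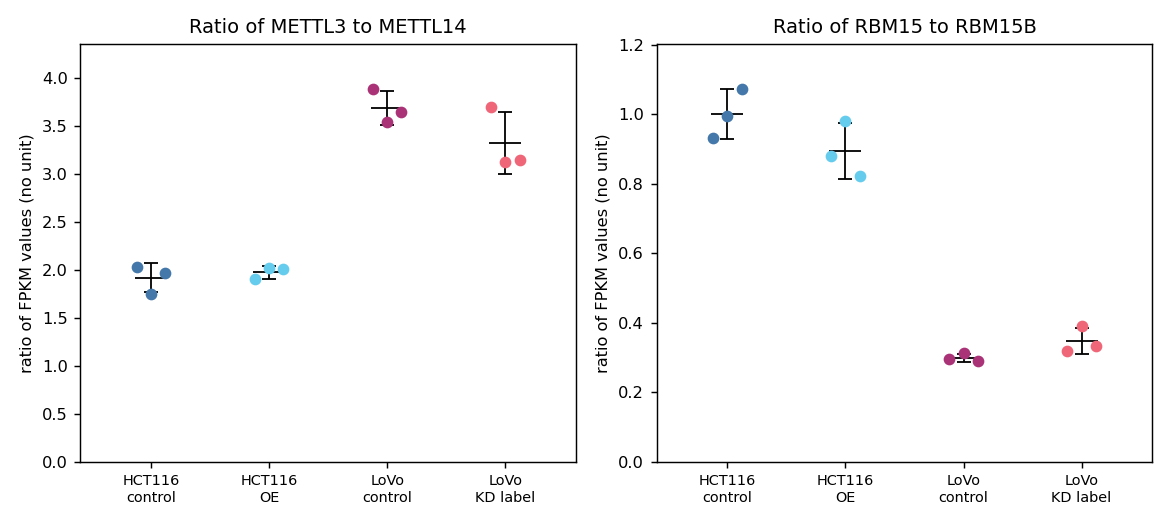
The left panel shows the ratio of METTL3 to METTL14 and the right panel that of RBM15 to RBM15B, as ratios of deposited FPKM (vertical axes from 0) in each library, with the mean and SD of 3. Lines separate in both panels, at 1.91 against 3.69 and at 1.00 against 0.300 in the control means.

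In HCT116 with OE, no member passed the test. Called were 0 of 10, with 0 at an unadjusted p under 0.05 in edgeR and 0 in DESeq2, against 0.914% of all 15980 genes (0.507% higher and 0.407% lower). Log2 fold changes ran from -0.08 to 0.08, and their median size was 0.05, against 0.11 over all genes tested. The values of the OE libraries overlapped those of the controls for every member, while 19.1% of all genes did not overlap.

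RBM15 had the most negative log2 fold change of the 10 in HCT116, which was also the largest in size. It measured 10.9, 11.8 and 12.4 FPKM in the controls and 11.4, 11.8 and 9.49 FPKM with OE (log2 fold change -0.08, SE 0.079, 95% interval -0.24 to 0.08, edgeR adjusted p = 0.695). OE library 3 was the low one, and without it the log2 fold change was 0.01. RBM15B measured 11.7, 11.9 and 11.6 FPKM in the controls and 12.9, 12.1 and 11.5 with OE (log2 fold change 0.08, 95% interval -0.05 to 0.21, adjusted p = 0.612). The ratio of RBM15 to RBM15B was 0.881, 0.980 and 0.822 with OE, overlapping the controls (exact permutation p = 0.2).

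For METTL3 the OE libraries measured 12.7, 13.3 and 13.7 FPKM (log2 fold change 0.06, 95% interval -0.07 to 0.19), and for METTL14 6.71, 6.60 and 6.82 FPKM (0.01, interval -0.14 to 0.16). Their ratio was 1.90, 2.01 and 2.01 with OE, within the spread of the controls (exact permutation p = 0.7). WTAP had a log2 fold change of 0.05, VIRMA of 0.01, ZC3H13 of 0.05 and CBLL1 of -0.03. ALKBH5 measured 32.7, 33.1 and 30.3 FPKM with OE (log2 fold change -0.05, interval -0.17 to 0.07), and FTO 2.53, 2.55 and 2.63 FPKM (-0.03, interval -0.17 to 0.11). Over the 10 members the 95% intervals lay between -0.24 and 0.21 on the log2 scale.

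In LoVo, 1 of the 10 members passed the test in the libraries labelled KD, and it was a demethylase, not a writer. The share called over all 16253 genes was 26.3% (13.7% lower and 12.6% higher), and the members' count was not tested against it. Log2 fold changes of the members ran from -0.22 to 0.22, with a median size of 0.10 against 0.20 over all genes tested, and 7 of 10 were positive. At an unadjusted p under 0.05 there were 3 of 10.

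ALKBH5 fell in the libraries labelled KD. It measured 23.4, 23.5 and 24.5 FPKM in the controls and 20.5, 19.2 and 20.5 with KD. All 3 KD libraries lay below every control, and 39.7% of all genes tested in LoVo likewise had no overlap between the groups. The log2 fold change of ALKBH5 was -0.22 (SE 0.066, 95% interval -0.35 to -0.08, edgeR adjusted p = 0.0184), or 1.16-fold lower. The call was lost without control 3 (log2 fold change -0.19, adjusted p = 0.113), without KD 2 (-0.18, adjusted p = 0.0572) or without KD 3 (-0.23, adjusted p = 0.0598). The adjusted p over its 14 alternatives ran from 0.00187 to 0.113. FTO, the other demethylase, measured 1.66, 1.56 and 1.75 FPKM in the controls and 1.74, 1.55 and 1.81 with KD (log2 fold change 0.07, interval -0.11 to 0.24).

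Since ALKBH5 was the member called within a line, the 250 bases before its RefSeq start are shown, chr17:18183578-18183827 on the plus strand (GRCh38.p14, RefSeq), with matches to the GC box GGGCGG and to the NRF1 core GCGCATGC in capitals.
ALKBH5: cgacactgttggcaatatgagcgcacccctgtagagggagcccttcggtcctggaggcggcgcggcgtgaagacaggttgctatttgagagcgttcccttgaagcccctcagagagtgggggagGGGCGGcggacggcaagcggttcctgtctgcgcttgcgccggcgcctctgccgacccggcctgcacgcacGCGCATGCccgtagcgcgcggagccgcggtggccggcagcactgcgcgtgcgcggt
Both motifs were searched on both strands, and each occurs once in this window. Of all 35116 promoters in the table, 42.6% hold the GC box and 2.63% the NRF1 core in the same window. The NRF1 core also occurs once before the start of METTL3, and in no other of the 9 members with a promoter in the table. The CCAAT box (CCAAT, found in 32.0% of promoters) occurs 4 times before RBM15 and not before RBM15B, while the E-box CACGTG (6.34%) occurs once before each. These matches are a description of sequence and not of binding.

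RBM15 was higher in all 3 libraries labelled KD but did not pass the test. It measured 6.72, 6.60 and 6.44 FPKM in the LoVo controls and 6.90, 6.77 and 7.02 with KD, without overlap, as did 39.7% of all genes tested in LoVo. The log2 fold change was 0.10 (SE 0.082, 95% interval -0.07 to 0.27, edgeR adjusted p = 0.410). RBM15-AS1, which overlaps its exons, had 8 to 23 counts in the LoVo controls and 5 to 10 with KD, too few for the test. RBM15B measured 22.7, 21.1 and 22.1 FPKM in the controls and 21.6, 17.4 and 21.0 with KD (log2 fold change -0.11, interval -0.26 to 0.04), with KD library 2 as the low one. Without that library the log2 fold change was -0.01. The ratio of RBM15 to RBM15B was 0.320, 0.390 and 0.334 with KD, above every control, 1.16-fold higher on average (exact permutation p = 0.1, the smallest possible, adjusted p = 0.2).

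METTL14 and VIRMA had intervals above 0 but did not pass after adjustment. METTL14 measured 3.83, 4.79 and 4.98 FPKM with KD (log2 fold change 0.22, interval 0.01 to 0.42, edgeR adjusted p = 0.107), and KD library 1 lay among the controls. VIRMA measured 4.99, 5.69 and 5.40 FPKM with KD (log2 fold change 0.17, interval 0.02 to 0.33, adjusted p = 0.0942). Without KD library 1 both passed, METTL14 at 0.32 (adjusted p = 0.0113) and VIRMA at 0.22 (adjusted p = 0.0393). With a replicate block they passed as well, at adjusted p = 0.0495 and 0.0293. CBLL1 measured 7.20, 7.96 and 8.38 FPKM with KD (log2 fold change 0.16, interval -0.0043 to 0.33, adjusted p = 0.144). KD library 1 was the lowest of the 3 for METTL14, VIRMA, ZC3H13, CBLL1, METTL3 and WTAP. METTL3 (0.05), WTAP (-0.02) and ZC3H13 (0.04) had smaller log2 fold changes with intervals on both sides of 0. The ratio of METTL3 to METTL14 was 3.69, 3.12 and 3.14 with KD, overlapping the controls (exact permutation p = 0.3).

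**Figure D5:**
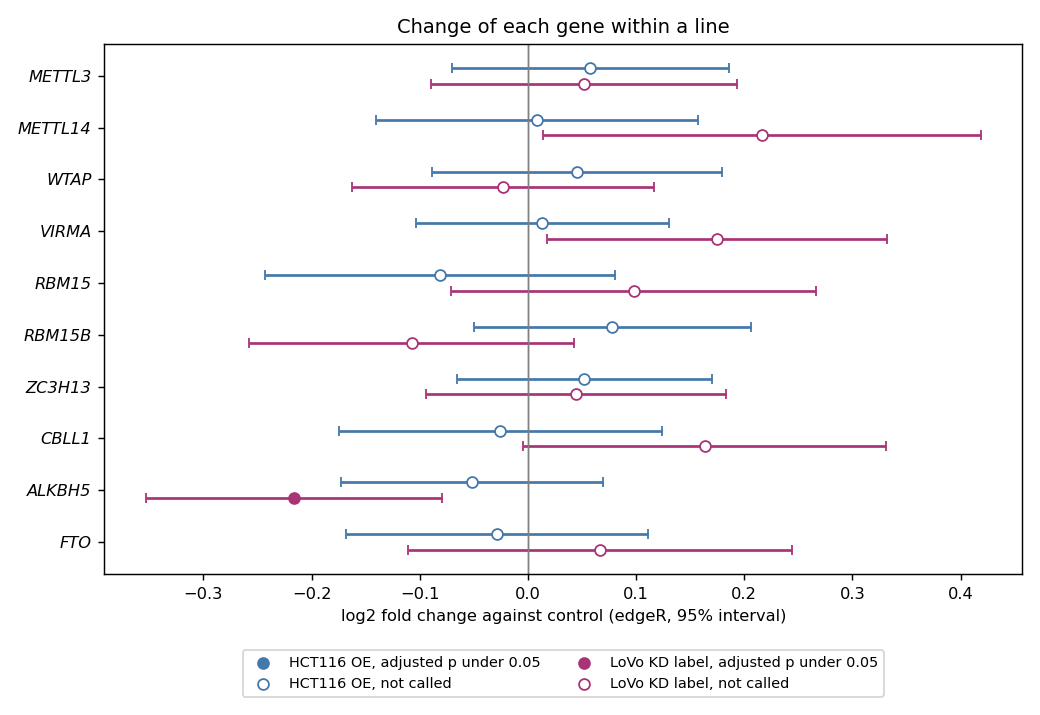
Points are log2 fold changes against the control of the same line (horizontal axis) from edgeR with 95% intervals, blue for HCT116 OE and purple for LoVo libraries labelled KD, filled where the adjusted p was under 0.05. ALKBH5 in LoVo at -0.22 is the filled point, and METTL14 at 0.22 and VIRMA at 0.17 in LoVo are open.

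Whether a member's change differed between the lines was tested over all 12 libraries, as OE minus control in HCT116 against control minus KD in LoVo. The LoVo direction follows the label only, and a fall of SLERT was not detectable there. ALKBH5 was called (difference -0.27, SE 0.086, edgeR adjusted p = 0.0335) and the other 9 members were not, against 14.6% of 18199 genes (6.94% higher and 7.61% lower). The call of ALKBH5 was lost without a filter on low counts (adjusted p = 0.0693) and without HCT116 control 1, control 2 or OE 3, or LoVo control 1, control 3, KD 2 or KD 3. For RBM15 the difference was 0.01 (95% interval -0.22 to 0.25, adjusted p = 0.975).

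Genes around the pathway were taken from lists chosen by function. In HCT116 with OE none of the 6 other m6A methyltransferases and cofactors, 10 readers, 8 genes of S-adenosylmethionine supply or 7 other AlkB dioxygenases passed, and the smallest p fell to TRMT112, the cofactor of METTL5 (log2 fold change 0.24), the reader IGF2BP3 (-0.16) and the tRNA modifying enzyme ALKBH8 (0.19) in their lists. In LoVo with KD, TRMT112 rose (0.23, SE 0.081, adjusted p = 0.0426), as 1 of 6 in its list, and the reader YTHDC2 rose (0.31, SE 0.070), as 1 of 10. MAT2A, which makes S-adenosylmethionine, rose (0.18, SE 0.056), and so did AHCYL2 (0.39, SE 0.061), as 2 of 7 tested genes of the methyl donor supply. Of the other AlkB enzymes, ALKBH2 rose (0.25) and ALKBH4 fell (-0.43), and of the 6 genes listed with SPEN, the larger relative of RBM15, SETD1B, an H3K4 methyltransferase, fell (-0.53). Over all genes tested in LoVo 26.3% were called.

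Between the control cells of the lines, 4 of the 6 other methyltransferases and cofactors were lower in LoVo, namely TRMT112 (log2 fold change -1.21), ZCCHC4 (-0.56), METTL5 (-0.47) and METTL16 (-0.29). Of the readers 7 of 10 were lower (IGF2BP3, HNRNPC, YTHDF2, YTHDF3, IGF2BP2, YTHDC1 and YTHDF1) and YTHDC2 and IGF2BP1 were higher. SPEN, a relative of RBM15, was higher in LoVo (0.53, SE 0.063), as was SETD1B (1.51), while HDAC3 was lower (-0.51). Of SPEN, RBM15 and RBM15B, RBM15 was the one lower in LoVo.

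The genes whose profile over the 12 libraries lay nearest to that of RBM15 were G3BP2, MIB1, TOPORS, EXOC2 and PDRG1, out of 13065 compared. Nearness was the Euclidean distance between log2 CPM profiles centred on their means, and it was 0.228 for G3BP2 and 0.269 for PDRG1. G3BP2, a stress granule protein, averaged 317, 310, 173 and 185 CPM in HCT116 controls, HCT116 OE, LoVo controls and LoVo libraries labelled KD. Profiles in this measure include the difference between lines. Among the other members ZC3H13 was nearest to RBM15, at 0.401, followed by FTO at 0.449 and METTL14 at 0.472, and RBM15B was farthest at 2.68.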

How the data were processed

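Total RNA was sequenced in 12 libraries. The submitters' processing notes name HISAT2 2.1.0 and GRCh38. No counting program, annotation or strand setting is given in these sources. The authors deposited whole-number read counts for 62656 genes and FPKM for 38828 genes. Each FPKM equalled the count divided by a fixed gene length and the library's total count (largest relative spread of that length over libraries 5.19e-13). Of the identifiers 62652 were found in GENCODE v29 or a table of gene names. The mapping of the columns headed Vector to the HCT116 controls is the least certain.

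Counts were tested with edgeR 4.0.16 in R 4.3.3 (quasi-likelihood F test, TMM factors, filterByExpr), per line and, for comparisons between lines, over all 12 libraries, with Benjamini-Hochberg adjustment over all genes tested and calls at an adjusted p under 0.05. Exact permutation tests were used for ratios. The comparisons within a line and between lines share control libraries. FPKM values carry no TMM factor (0.956 to 1.05), so their fold differs slightly from the edgeR change. The common biological coefficient of variation was 6.00% in HCT116 and 6.41% in LoVo. Library pairs within groups had a chi-square per degree of freedom of 2.40 to 6.63, which does not show whether they are separate cultures. Each library was counted as 1 replicate.

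The members and lists were chosen with earlier results of these data known. All 10 members are named, with listed genes past the test or otherwise the one with the smallest p, overlapping genes, and the 5 genes nearest to RBM15 with an average log2 CPM of at least 1. Some listed genes are not reported here. Alternatives were DESeq2 1.42.0, RLE and upper quartile factors, no filter, 1 fit of all libraries, limma 3.58.1 on log2(FPKM + 1) and log2(FPKM + 0.1), a replicate block and leaving out each library. The scripts were tested on simulated data.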

Additional observations from a re-analysis of the deposited data

Results flagged for a closer look

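ALKBH5 was called in the test of the difference between the lines (log2 value -0.27, OE minus control in HCT116 against control minus KD by label in LoVo). This call was lost under 8 of its 19 alternatives, and 14.6% of all 18199 genes tested were called in the same test. In HCT116 ALKBH5 had a log2 fold change of -0.05 with OE, and in LoVo it had -0.22 in the libraries labelled KD. Its measured change was thus negative in both comparisons. SNORA5C showed no fall in the LoVo libraries labelled KD, and the part of this in the result was not tested.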

How the results depend on the processing

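The count of members called stayed at 0 under all 14 alternatives in HCT116 and at 9 or 10 under all 19 between lines. In LoVo it was 1, went to 3 with a replicate block, and ran from 0 to 3 when single libraries were left out. For the difference between lines it was 1, went to 0 with no filter, and ran from 0 to 2 when single libraries were left out. The cause was not tested. Of 660 values of single members under an alternative, 610 kept direction and side of the threshold, 11 lost a call, 7 gained one and 32 changed sign, none of these with a call. In HCT116 METTL14 was -0.0036 with upper quartile factors and, on log2(FPKM + 1) and log2(FPKM + 0.1), -0.0100 and -0.0111, and VIRMA -0.0083 and -0.0088. For the difference between lines RBM15 was -0.0030 with upper quartile factors. On the FPKM scales it was -0.0420 and -0.0427, WTAP -0.0298 and -0.0316 and FTO -0.0137 and -0.0146. Without single libraries the ranges in HCT116 were -0.033 to 0.057 for METTL14, -0.015 to 0.050 for VIRMA, -0.062 to 0.024 for CBLL1, -0.062 to 0.0077 for FTO, -0.14 to 0.0052 for RBM15 and -0.019 to 0.091 for the ratio of METTL3 to METTL14. In LoVo they were -0.067 to 0.021 for WTAP and -0.0018 to 0.10 for ZC3H13, and for the difference between lines -0.040 to 0.10 for RBM15, -0.019 to 0.080 for WTAP, -0.090 to 0.068 for RBM15B and -0.0031 to 0.11 for FTO. The labels share replicate numbers but do not say that they pair libraries, and deviations of same-numbered libraries correlated at 0.0582 to 0.0703 in HCT116 and 0.000985 to 0.141 in LoVo, so the block was not used as a result. In HCT116 each library correlated best with its own number, and in LoVo this failed for number 3. With a replicate block 1322 genes were called in HCT116 instead of 146, and 5588 in LoVo instead of 4278. Over all genes, calls in HCT116 numbered 256 with no filter, 254 with DESeq2, 109 in 1 fit of all libraries and 4 and 5 on the FPKM scales. In LoVo they were 1727 and 1845 on those scales. Leaving out single libraries gave 37 to 287 in HCT116 and 2769 to 4813 in LoVo. For the difference between lines they were 2648, against 4015 with the block and 1679 and 1475 on the FPKM scales. Lengths of the principal transcript were an alternative chosen after seeing the data.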
